A study of Mus musculus with 24 samples.

Results

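The 37 genes described here encode the machinery of mitosis: the mitotic cyclins with their kinase and its activator, the mitotic kinases and the chromosomal passenger complex, the spindle checkpoint, kinesins, centromere and kinetochore proteins, spindle and cytokinesis proteins, and proteins of anaphase and mitotic exit, with the transcription factor gene Foxm1, the topoisomerase gene Top2a and the proliferation antigen gene Mki67. They were chosen by name from a list, and all 37 were found among the 55487 genes of the count table and passed the filter on low counts, which left 15828 genes for testing. Polyadenylated RNA was sequenced from mouse embryonic fibroblasts (MEFs), cultured fibroblasts grown from mouse embryos, in 24 libraries that form 6 groups of 4. Wild-type (WT) MEFs and AMPK knockout (AMPK KO) MEFs, a prkaa1 prkaa2 knockout line that lacks both catalytic subunits of the energy-sensing kinase AMPK and was obtained from another laboratory, were each treated with DMSO as the vehicle, with MK-8722, a small molecule that activates AMPK directly, or with torin1, which blocks the catalytic site of MTOR. The series asks how the loss of AMPK changes the response to each compound. Every group held 1 library of each of 4 passages, 12 to 15 for WT and 16 to 19 for AMPK KO, so genotype and passage range cannot be told apart. The labels do not say whether the libraries of a group came from separate cultures beyond their passage, and p-values then measure the spread between these libraries.

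Mitosis is driven by CDK1 bound to cyclin A2, B1 or B2, which is switched on by CDC25 phosphatases at the end of G2 and is lost when the anaphase-promoting complex (APC/C) marks the cyclins for destruction. Polo-like and Aurora kinases build the spindle, the checkpoint kinases and MAD and BUB proteins hold the APC/C until every kinetochore is attached, and separase then cuts cohesin so that the chromatids part. Most of these genes are transcribed in late S phase, G2 and M, under the MuvB complex with B-MYB and FOXM1, and are silenced in resting cells by the DREAM complex. In RNA from a whole culture, a smaller number of cells in G2 or mitosis and less of these transcripts per cell cannot be told apart, and no measurement here separates them.

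The promoters were examined because the genes of this programme are known to carry a CHR element (TTTGAA or TTTAAA), where the MuvB complexes bind, and CCAAT boxes, where NF-Y binds. Of the 37 genes, 30 matched a promoter in the RefSeq table for GRCm38.p6, in a window of 250 bases before to 50 bases after the annotated start. Ccna2, Cdc25c, Aurkb, Incenp, Kif20a, Tpx2 and Foxm1 had no entry. On either strand, 26 of the 30 genes (86.7%) had a CHR in the window against 30.6% of the 27025 genes with a promoter in that table, and 24 (80.0%) had CCAAT against 41.1%. Both were found in 23 of the 30 genes (76.7%) and in 12.2% of all genes. With only the 200 bases before the start, the CHR was found in 16 genes (53.3%, all genes 22.5%) and CCAAT in 24 (80.0%, all genes 32.7%). These matches of letters are descriptions of the windows and do not show that a factor binds there. TTTAAA reads the same on both strands, the other motifs were searched as written and as TTCAAA and ATTGG, and the end base of a CCAAT and a CHR match can be shared. The 120 bases before the start are printed 5′ to 3′ on the gene's own strand, with every match in capitals. The first 7 belong to genes whose levels are given library by library in the results, for CDK1, the kinases, the kinesins, the midzone, anaphase and chromosome structure. Each shows both motifs close to the start, which does not hold for all genes given library by library. Birc5 and Anln had no CCAAT in the window, and in Cenpe, Aurka, Bub1b, Hmmr and Anln the CHR lay only after the start.
Cdk1 (chr10:69352913-69353032, minus strand): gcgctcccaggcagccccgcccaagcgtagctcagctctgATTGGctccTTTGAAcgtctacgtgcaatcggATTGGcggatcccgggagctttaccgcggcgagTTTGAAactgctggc
Plk1 (chr7:122159315-122159434, plus strand): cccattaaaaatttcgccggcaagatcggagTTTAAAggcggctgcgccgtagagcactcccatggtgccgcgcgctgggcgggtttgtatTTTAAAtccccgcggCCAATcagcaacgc
Cdc20 (chr4:118437344-118437463, minus strand): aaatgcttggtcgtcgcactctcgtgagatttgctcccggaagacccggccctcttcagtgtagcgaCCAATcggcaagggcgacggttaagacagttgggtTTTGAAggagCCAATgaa
Kif11 (chr19:37376262-37376381, plus strand): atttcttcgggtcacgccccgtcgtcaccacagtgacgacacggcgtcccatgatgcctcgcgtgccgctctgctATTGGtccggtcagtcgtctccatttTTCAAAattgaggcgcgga
Prc1 (chr7:80294356-80294475, plus strand): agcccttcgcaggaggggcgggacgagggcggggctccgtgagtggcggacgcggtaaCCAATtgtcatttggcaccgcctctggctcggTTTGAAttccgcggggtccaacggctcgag
Top2a (chr11:99024190-99024309, minus strand): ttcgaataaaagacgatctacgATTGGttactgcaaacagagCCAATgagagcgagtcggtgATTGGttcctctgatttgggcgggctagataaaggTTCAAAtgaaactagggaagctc
Espl1 (chr15:102296173-102296292, plus strand): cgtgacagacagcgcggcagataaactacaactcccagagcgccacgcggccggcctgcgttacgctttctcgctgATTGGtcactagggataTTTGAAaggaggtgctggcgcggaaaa
The next belongs to Nusap1, which held the largest difference between torin1 and MK-8722 in AMPK KO cells and had neither motif in the whole window.
Nusap1 (chr2:119618178-119618297, plus strand): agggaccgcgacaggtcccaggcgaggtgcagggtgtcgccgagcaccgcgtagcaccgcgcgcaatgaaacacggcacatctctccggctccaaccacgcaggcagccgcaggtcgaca
Mad2l1 and Pttg1 had neither motif in the window as well. For Cdca8, Kif2c, Kif4 and Pttg1, 4 of the 30 genes, the RefSeq start lay more than 250 bases inside the gene as the GRCm38 annotation draws it (270 bases for Pttg1), so their windows do not reach the bases before the outermost start, and the sequence of Pttg1 is not printed. For the genes printed, the RefSeq start lay at most 27 bases inside.

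Library totals ranged from 26900240 to 34192685 counts, and the 37 genes held 0.626 to 0.965% of them. Prkaa1 was at 71.1 to 82.6 CPM, counts scaled to the library total, in the 12 WT and 68.1 to 90.7 CPM in the 12 AMPK KO libraries, and Prkaa2 at 3.01 to 8.51 and 2.41 to 6.28 CPM. Gene totals include reads outside any deleted part, so these ranges, which overlap, do not check the genotype label. Of 12 fibroblast markers, Col1a1 (10389 to 132417 counts), Fn1 (59964 to 213798) and Vim (48740 to 165503) were high in every library, whereas Dcn (0 to 11) and Lum (0 to 1) were nearly absent. The markers summed to 11500 to 18700 CPM in WT and 5670 to 7810 CPM in AMPK KO libraries. Of 14 markers of other cell types, Adgre1 was at 0 in every library, Ptprc at 0 to 2 and Pou5f1 at 0 to 1 counts, whereas 10 passed the filter, among them Tubb3 at 1128 to 3495, Kdr at 22 to 216 and Cd68 at 36 to 120 counts. The list summed to 52.5 to 94.1 CPM in WT and 73.3 to 116 CPM in AMPK KO libraries.

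In the vehicle-treated WT cells every one of the 37 genes was well expressed. Compared per length of transcript, in TPM, a unit that divides counts by transcript length, the kinase gene Cdk1 was the highest at 442 ± 17.5 TPM (SD, n = 4). It was followed by Ube2c, the E2 enzyme of the APC/C, at 407 ± 30.3 TPM, Top2a, which untangles the chromatids, at 276 ± 14 TPM, the cyclin gene Ccna2 at 254 ± 14.1 TPM and Birc5, the survivin subunit of the passenger complex, at 239 ± 7.91 TPM. The lowest were the kinetochore gene Cenpf at 24 ± 1.01 TPM, the checkpoint kinase gene Ttk at 26.3 ± 0.322 TPM and Pttg1, which encodes the separase inhibitor securin, at 28.4 ± 1.15 TPM. The median of the 37 genes was 105 TPM. In this order of levels, 27 of the 36 neighbouring pairs overlapped between libraries, so most adjacent positions cannot be told apart. Pttg1 stood at place 35 in WT and at place 29 in AMPK KO cells with DMSO. The summed TPM of the 37 genes was 4610 to 5070 in WT DMSO, 4650 to 5410 in WT MK-8722, 4510 to 5120 in WT torin1, 5420 to 5590 in AMPK KO DMSO, 4710 to 5090 in AMPK KO MK-8722 and 6050 to 6550 in AMPK KO torin1 libraries. The torin1-treated AMPK KO libraries thus lay above every other library on this scale.

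**Figure D1:**
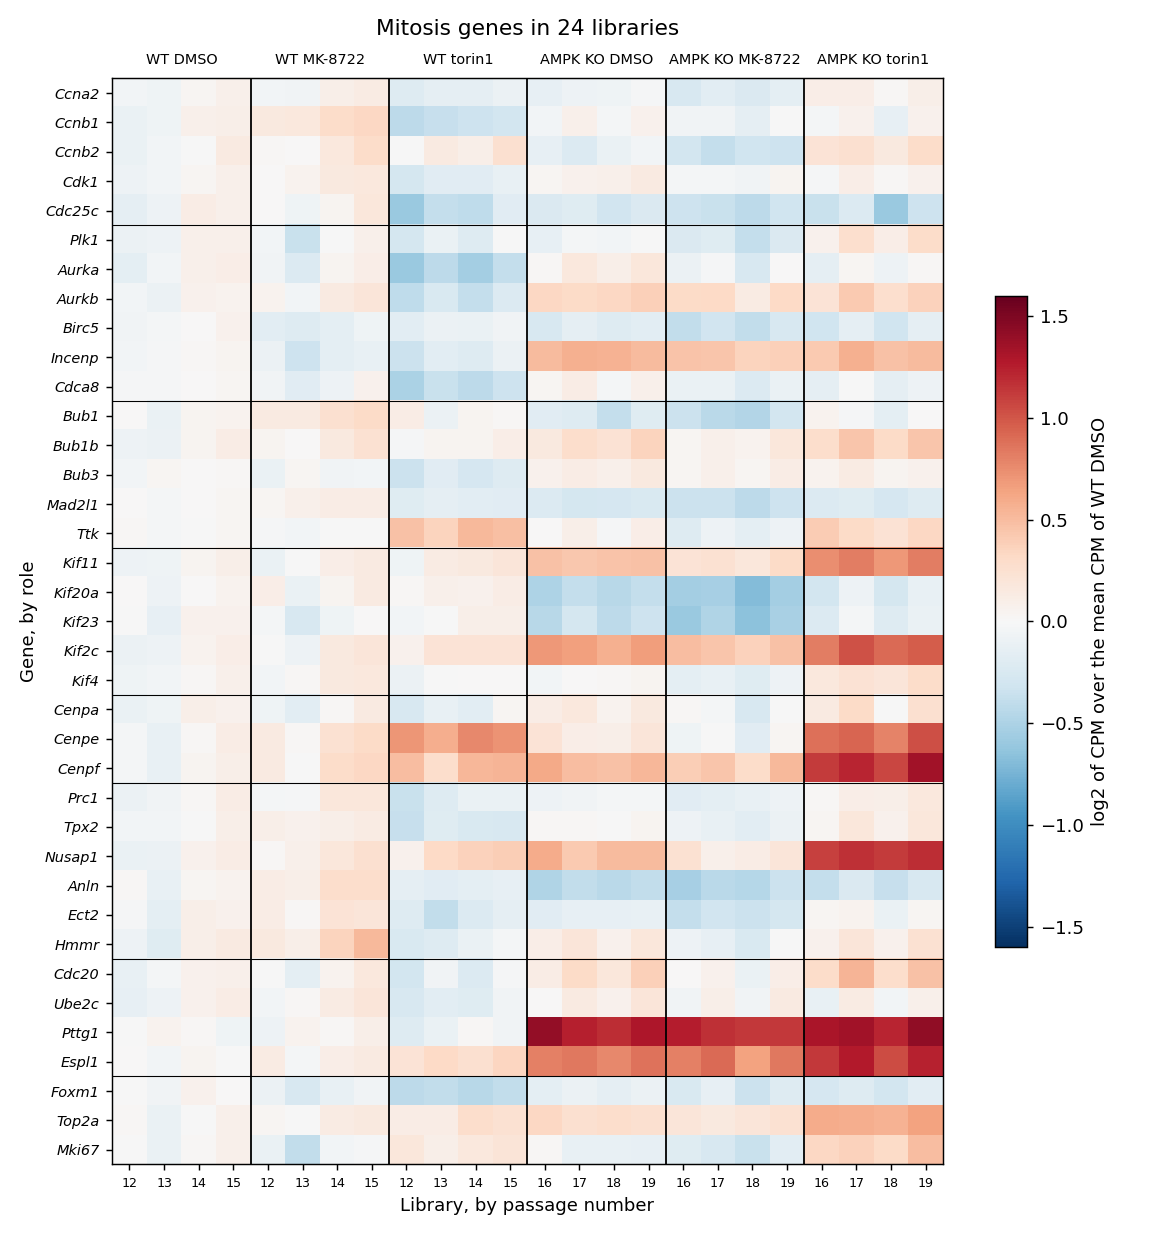
Heat map of the 37 genes, ordered by role, in 24 libraries ordered by group and passage, in which colour is log2 CPM relative to the mean of the WT DMSO libraries. Cenpe and Cenpf are higher in both torin1 groups, and Cenpf, Pttg1 and Espl1 are higher throughout the AMPK KO groups.

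Torin1 split the mitosis genes in WT cells and raised part of them in AMPK KO cells. A gene is called changed where the adjusted p of edgeR's quasi-likelihood test (Benjamini-Hochberg over all 15828 genes) was under 0.05 and the fold change was at least 1.2, and log2 fold changes are given ± their SE. In WT, 5 of the 37 genes rose with torin1 against DMSO (26.6% of all genes tested rose) and 7 fell (21.1% of all genes fell). Their median log2 fold change was -0.14, against 0.04 over all genes. In AMPK KO, 10 rose (25.9% of all genes) and 0 fell (17.6%), with a median of 0.14 against 0.06. For this 0 by edgeR, 3 genes were lower at an unadjusted p under 0.05, and DESeq2 also called 0 lower and 8 higher. Read against all genes, the share that rose was lower than the background in WT and near it in AMPK KO, and the share that fell was near it in WT and lower in AMPK KO. Without the adjustment for library composition (library size alone), the WT split was 7 higher and 4 lower, and with the trend over GC content and length removed it was 3 and 12.

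The cyclin B1 and Aurora kinase genes were among those that fell in WT. Values are given in CPM by rising passage number, from passage 12 on in WT and from passage 16 on in AMPK KO. Ccnb1, the cyclin that carries CDK1 into mitosis, was at 177, 181, 201 and 203 CPM with DMSO and 143, 147, 152 and 155 CPM with torin1 in WT. All 4 torin1 libraries lay below all DMSO libraries, a log2 fold change of -0.35 ± 0.053 (adjusted p = 4.4e-06). In AMPK KO it was at 185, 201, 187 and 200 CPM with DMSO and 186, 199, 174 and 199 CPM with torin1, groups that overlap, with a log2 fold change of -0.03 ± 0.053 (adjusted p = 0.7). Under library size alone, the WT value was -0.25 and fell short of the call. Cdk1 itself was at 202, 207, 217 and 226 CPM with DMSO and 176, 188, 188 and 196 CPM with torin1 in WT, and 217, 223, 226 and 236 CPM with DMSO and 210, 229, 216 and 224 CPM with torin1 in AMPK KO. Its log2 fold changes of -0.19 ± 0.045 (adjusted p = 8e-04) and -0.03 ± 0.045 (adjusted p = 0.53) did not reach the fold threshold. Cdc25c, the phosphatase gene that activates CDK1, fell in WT (-0.38 ± 0.078, adjusted p = 0.00018) and stood at -0.13 ± 0.078 (adjusted p = 0.17) in AMPK KO. The cyclin genes Ccnb2 and Ccna2 stood at 0.12 ± 0.062 and -0.15 ± 0.045 in WT, neither called, and Ccnb2 rose in AMPK KO (0.36 ± 0.062, adjusted p = 3.1e-05) while Ccna2, at 0.16 ± 0.045, was not called.

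Aurka, the spindle pole kinase, had the largest fall in WT. It was at 108, 117, 128 and 130 CPM with DMSO and 79.7, 90.5, 82.9 and 92.7 CPM with torin1, with no overlap, a log2 fold change of -0.48 ± 0.072 (adjusted p = 3.3e-06). Its AMPK KO libraries read 122, 136, 129 and 137 CPM with DMSO and 109, 123, 114 and 122 CPM with torin1, where the groups overlapped and the value was -0.16 ± 0.071 (adjusted p = 0.057). Aurkb, the kinase of the chromosomal passenger complex, was at 98.2, 94.9, 106 and 105 CPM with DMSO and 76.2, 85.1, 77.6 and 87 CPM with torin1 in WT and fell by 0.31 on the log2 scale (SE 0.058, adjusted p = 6.6e-05). The AMPK KO libraries were at 127, 125, 127 and 132 CPM with DMSO and 118, 135, 122 and 131 CPM with torin1, a value of -0.01 ± 0.057 (adjusted p = 0.88). Under library size alone, the WT value of Aurkb was -0.21, under the fold threshold. Of its partners, the borealin gene Cdca8 fell in WT (-0.40 ± 0.049, adjusted p = 1.8e-07) and stood at -0.15 ± 0.049 (adjusted p = 0.013) in AMPK KO, and Incenp, the scaffold, stood at -0.20 ± 0.05 and -0.04 ± 0.05, not called in either. Birc5 was at 139, 142, 145 and 152 CPM with DMSO and 129, 135, 134 and 139 CPM with torin1 in WT, and 121, 131, 125 and 128 CPM with DMSO and 116, 131, 116 and 131 CPM with torin1 in AMPK KO, with log2 fold changes of -0.11 ± 0.046 and -0.03 ± 0.046. It was, with Ube2c (-0.16 ± 0.068 in WT and -0.09 ± 0.067 in AMPK KO), called in none of the 11 comparisons. Plk1, the polo-like kinase, was at 184, 186, 208 and 208 CPM with DMSO and 162, 183, 171 and 195 CPM with torin1 in WT, and 180, 192, 191 and 196 CPM with DMSO and 206, 237, 211 and 241 CPM with torin1 in AMPK KO. Neither difference was called, at -0.14 ± 0.075 (adjusted p = 0.11) and 0.24 ± 0.075 (adjusted p = 0.0095).

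The kinetochore gene Cenpe had the largest rise with torin1 in both genotypes. Of the checkpoint genes 1 of 5 was called, as a rise in each genotype, near the shares of all genes that rose (26.6% in WT and 25.9% in AMPK KO). Cenpe, a kinesin that moves chromosomes to the spindle equator, was at 172, 162, 178 and 190 CPM with DMSO and 286, 263, 298 and 290 CPM with torin1 in WT, and at 204, 189, 188 and 201 CPM with DMSO and 324, 334, 303 and 360 CPM with torin1 in AMPK KO. Every torin1 library was above every DMSO library of its genotype, and the log2 fold changes of 0.70 ± 0.063 (adjusted p = 1.3e-09) and 0.76 ± 0.063 (adjusted p = 4.8e-10) were the largest rises of the 37 genes. Cenpf, a large kinetochore protein of G2 cells, rose by 0.46 ± 0.073 (adjusted p = 7.2e-06) in WT and 0.67 ± 0.072 (adjusted p = 3.9e-08) in AMPK KO. The histone gene of the centromere, Cenpa, stood at -0.12 ± 0.073 and 0.05 ± 0.073 and was not called. Ttk, the MPS1 kinase that starts the checkpoint, rose in both, by 0.46 ± 0.043 (adjusted p = 2.9e-09) and 0.27 ± 0.043 (adjusted p = 8.8e-06). The AMPK KO call of Ttk was kept in 6 of 14 alternatives, not in that with DESeq2, and in 3 of 8 fits that left out 1 library. The remaining checkpoint genes were not called in either genotype. Bub1b, which encodes BUBR1, was at 185, 182, 201 and 212 CPM with DMSO and 193, 201, 201 and 209 CPM with torin1 in WT, and 217, 236, 228 and 249 CPM with DMSO and 237, 265, 242 and 266 CPM with torin1 in AMPK KO, with values of 0.04 ± 0.058 (adjusted p = 0.55) and 0.12 ± 0.058 (adjusted p = 0.083). Bub1 stood at 0.02 ± 0.058 and 0.21 ± 0.058, Bub3 at -0.25 ± 0.038 and -0.03 ± 0.038, and Mad2l1 at -0.17 ± 0.03 and 0.03 ± 0.03.

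Among the kinesins, 0 of 5 were called in WT by edgeR in either direction, as with DESeq2, although 1 was higher at an unadjusted p under 0.05, and 2 rose in AMPK KO (25.9% of all genes), of which DESeq2 called 1. Kif11, the motor that pushes spindle poles apart, was at 203, 205, 222 and 228 CPM with DMSO and 205, 235, 239 and 246 CPM with torin1 in WT, where the groups overlapped (0.11 ± 0.055, adjusted p = 0.099). In AMPK KO it was at 297, 289, 295 and 297 CPM with DMSO and 359, 378, 347 and 379 CPM with torin1, with no overlap and a rise of 0.31 ± 0.055 (adjusted p = 3.7e-05). Kif2c, which depolymerises microtubules at kinetochores, stood at 0.18 ± 0.06 (adjusted p = 0.012) in WT and rose in AMPK KO (0.29 ± 0.059, adjusted p = 0.00023), a call kept in 8 of 14 alternatives and in 4 of 8 fits that left out 1 library. Kif20a, a motor of the central spindle, was at 338, 317, 336 and 350 CPM with DMSO and 340, 354, 352 and 364 CPM with torin1 in WT, and 239, 258, 246 and 257 CPM with DMSO and 273, 318, 277 and 310 CPM with torin1 in AMPK KO. Its values of 0.07 ± 0.054 (adjusted p = 0.27) and 0.24 ± 0.054 (adjusted p = 7e-04) were not called, the latter for its size. Kif23, the centralspindlin motor, stood at 0.03 ± 0.06 and 0.23 ± 0.06, and Kif4, a chromosome-bound kinesin, at -0.02 ± 0.046 and 0.22 ± 0.046.

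The spindle and cytokinesis genes moved in different directions in WT. Nusap1, which bundles spindle microtubules, was at 78.2, 79, 88.7 and 91.3 CPM with DMSO and 88.7, 105, 109 and 111 CPM with torin1 in WT, where the highest DMSO library exceeded the lowest torin1 library, and rose by 0.29 ± 0.065 (adjusted p = 0.00042). The AMPK KO values were 127, 113, 120 and 120 CPM with DMSO and 180, 190, 183 and 191 CPM with torin1, with no overlap and a rise of 0.64 ± 0.064 (adjusted p = 1.1e-08). Tpx2, the activator of Aurora A, fell in WT (-0.27 ± 0.042, adjusted p = 6.4e-06) and stood at 0.10 ± 0.042 (adjusted p = 0.049) in AMPK KO. The WT call of Tpx2 was kept in 9 of 14 alternatives and in 4 of 8 fits that left out 1 library. Prc1, which crosslinks the midzone, was at 225, 230, 243 and 261 CPM with DMSO and 187, 207, 222 and 223 CPM with torin1 in WT, and 226, 231, 235 and 234 CPM with DMSO and 243, 257, 255 and 269 CPM with torin1 in AMPK KO. The differences of -0.20 ± 0.057 (adjusted p = 0.0052) and 0.14 ± 0.057 (adjusted p = 0.035) had opposite signs and neither was called. Anln, the anillin of the contractile ring, stood at -0.15 ± 0.048 and 0.12 ± 0.048, Ect2, the exchange factor that starts the furrow, at -0.24 ± 0.056 and 0.14 ± 0.056, and Hmmr, a spindle-bound protein, at -0.15 ± 0.08 and 0.01 ± 0.08.

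Of the anaphase genes only Espl1, which encodes separase, was called with torin1. It was at 154, 149, 159 and 153 CPM with DMSO and 179, 192, 184 and 195 CPM with torin1 in WT, and 270, 275, 262 and 280 CPM with DMSO and 337, 369, 317 and 361 CPM with torin1 in AMPK KO. The groups did not overlap in either genotype, with rises of 0.29 ± 0.053 (adjusted p = 5.6e-05) and 0.35 ± 0.053 (adjusted p = 4.6e-06). With no filter on low counts, the WT value was 0.26, just under the fold threshold. Cdc20, the checkpoint-controlled activator of the APC/C, was at 188, 200, 214 and 216 CPM with DMSO and 167, 197, 175 and 202 CPM with torin1 in WT, and 222, 253, 232 and 267 CPM with DMSO and 251, 299, 248 and 284 CPM with torin1 in AMPK KO, with values of -0.14 ± 0.077 (adjusted p = 0.12) and 0.15 ± 0.077 (adjusted p = 0.098). Pttg1 was not called, at -0.09 ± 0.063 and 0.04 ± 0.056. Foxm1, the transcription factor of this programme, was at 288, 279, 304 and 291 CPM with DMSO and 218, 221, 213 and 221 CPM with torin1 in WT, and 260, 273, 264 and 273 CPM with DMSO and 242, 252, 238 and 259 CPM with torin1 in AMPK KO. It fell in WT (-0.41 ± 0.045, adjusted p = 3.3e-08) and stood at -0.11 ± 0.045 (adjusted p = 0.04) in AMPK KO. Top2a was at 676, 622, 667 and 707 CPM with DMSO and 728, 724, 815 and 792 CPM with torin1 in WT, and 840, 797, 815 and 795 CPM with DMSO and 1010, 1000, 982 and 1040 CPM with torin1 in AMPK KO. Its rise of 0.31 ± 0.045 (adjusted p = 2.5e-06) was called in AMPK KO, and its WT value of 0.20 ± 0.045 (adjusted p = 0.00064) passed the p but not the fold. Mki67, whose protein Ki-67 coats mitotic chromosomes, was at 474, 445, 484 and 505 CPM with DMSO and 540, 507, 537 and 550 CPM with torin1 in WT, and 485, 440, 440 and 437 CPM with DMSO and 598, 615, 588 and 672 CPM with torin1 in AMPK KO. It rose in AMPK KO (0.46 ± 0.064, adjusted p = 1.8e-06) and stood at 0.16 ± 0.064 (adjusted p = 0.032) in WT. Ttk, Cenpe, Cenpf, Nusap1 and Espl1 were thus the 5 genes that rose in both genotypes, and 0 fell in both, with edgeR and the thresholds above. The share of all genes that rose or fell in both genotypes was not computed, so these counts have no background beside them. The rises of Cenpe and Cenpf were called in both genotypes whichever library was left out, as was Ttk in WT. In AMPK KO, the call of Ttk held in 3 of 8 such fits. In WT, Nusap1 was not called without DMSO replicate 2 or 4 and Espl1 not without DMSO replicate 2.

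**Figure D2:**
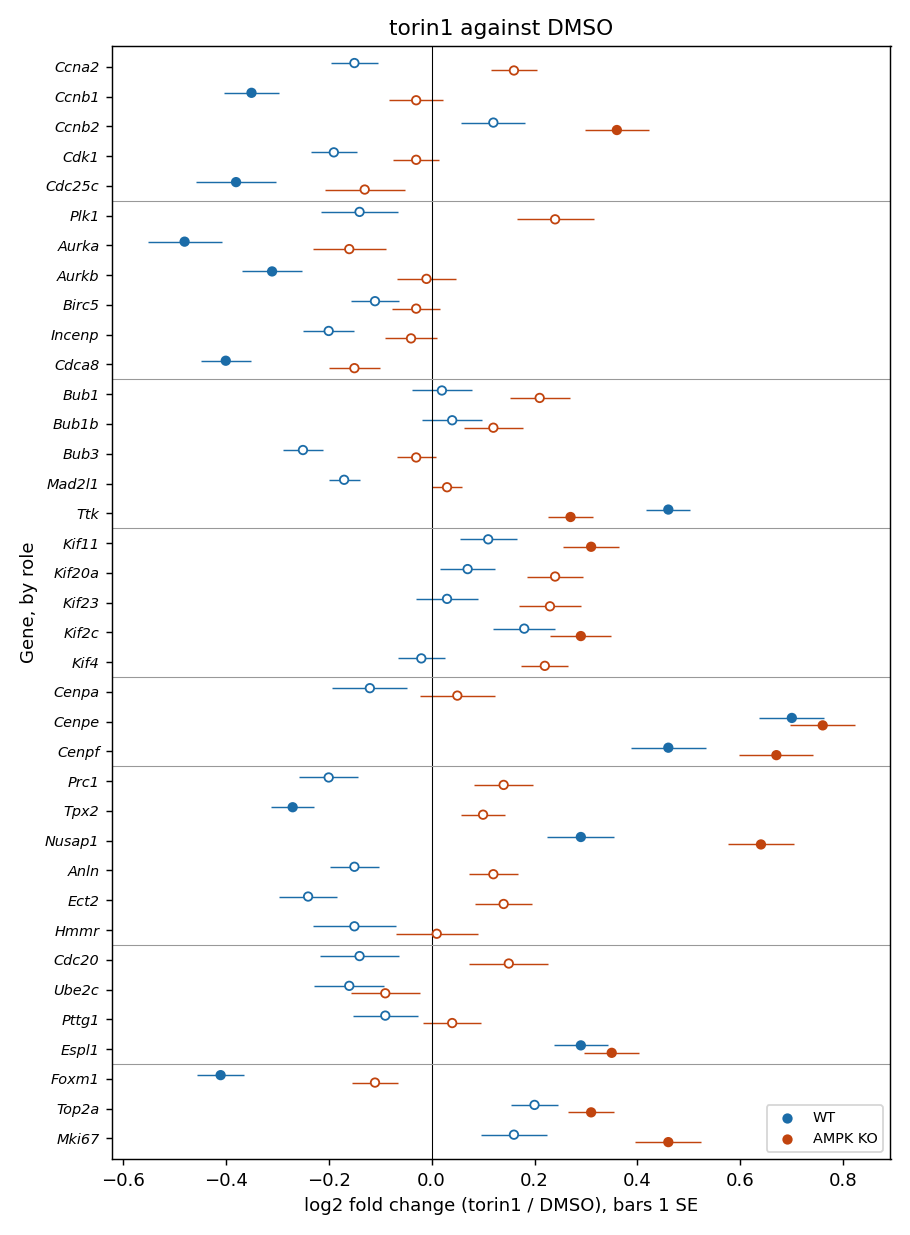
Log2 fold change of the 37 genes with torin1 against DMSO in WT and AMPK KO, with bars of 1 SE; filled points passed the call and open points did not. Cenpe has the highest value in both genotypes, and Aurka the lowest in WT.

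The response to torin1 differed between the genotypes for part of the genes. In the test of the difference itself (AMPK KO minus WT), 12 of the 37 genes had a higher response in AMPK KO (4.15% of all genes) and 0 a lower one (2.92% of all genes). At an unadjusted p under 0.05, 1 gene was lower and 25 were higher, and DESeq2 called 11 higher and 0 lower. The median difference of the 37 genes was 0.20, against 0.01 over all genes, and 36 of them had a value above 0, Ttk being the exception at -0.18 ± 0.061. The largest were those of Ect2 (0.38 ± 0.079, adjusted p = 0.0034), Plk1 (0.38 ± 0.11, adjusted p = 0.024) and Tpx2 (0.36 ± 0.059, adjusted p = 4e-04). The cyclin genes Ccnb1 (0.33 ± 0.075, adjusted p = 0.0077) and Ccna2 (0.30 ± 0.063, adjusted p = 0.0036), the kinase genes Aurka (0.32 ± 0.1, adjusted p = 0.045) and Aurkb (0.30 ± 0.082, adjusted p = 0.022) and the spindle and cytokinesis genes Prc1 (0.34 ± 0.081, adjusted p = 0.0095), Nusap1 (0.34 ± 0.091, adjusted p = 0.019) and Anln (0.27 ± 0.069, adjusted p = 0.014) were also called. Foxm1 (0.30 ± 0.064, adjusted p = 0.0041) and Mki67 (0.29 ± 0.091, adjusted p = 0.041) completed the 12. The call of Mki67 was kept in 2 of 16 fits that left out 1 library and in 7 of 14 alternatives. That of Aurka was kept in 5 of 16 and 5 of 14. For Cenpe (0.06 ± 0.088, adjusted p = 0.73), Espl1 (0.06 ± 0.075, adjusted p = 0.67) and Top2a (0.12 ± 0.064, adjusted p = 0.27) a difference was not called. The count fell to 2 without torin1 replicate 2 or replicate 4 of AMPK KO, and the calls of Tpx2 and Ect2 held whichever of the 16 libraries was left out, though that of Ect2 was lost with an offset for transcript length (adjusted p = 0.056, edgeR). The count was 6 with library size alone and 4 in a fit of the compared libraries only.

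With MK-8722, few of the genes were called in either genotype. In WT, 1 gene rose (10% of all genes) and 0 fell (5.66% of all genes). DESeq2 also called 1 and 0, and at an unadjusted p under 0.05 edgeR gave 10 higher and 4 lower. The median was 0.08 against 0.00 over all genes. In AMPK KO, 0 rose (0.866% of all genes) and 1 fell (0.695%), the same counts as with DESeq2, and at an unadjusted p under 0.05 there were 0 higher and 26 lower. All 37 genes had a value below 0 in AMPK KO, from -0.35 to -0.02 with a median of -0.14, whereas 8034 of all genes tested lay above 0 and 7778 below it, with a median of 0.00. The gene that rose in WT was Hmmr. It was at 97.9, 90.7, 111 and 115 CPM with DMSO and 116, 111, 133 and 148 CPM with MK-8722, groups that overlap, with a log2 fold change of 0.29 ± 0.08 (adjusted p = 0.0079). That call was lost without DMSO replicate 2, MK-8722 replicate 3 or MK-8722 replicate 4 of WT and when only the compared libraries were fitted. In AMPK KO, Hmmr was at 112, 119, 109 and 118 CPM with DMSO and 98, 94.7, 87.5 and 103 CPM with MK-8722 (-0.26 ± 0.08, adjusted p = 0.086). The gene that fell in AMPK KO was Nusap1, at 127, 113, 120 and 120 CPM with DMSO and 99.6, 89.1, 91.8 and 96.1 CPM with MK-8722, with no overlap (-0.35 ± 0.065, adjusted p = 0.0051). In WT with MK-8722, Nusap1 was at 85.2, 89.2, 95.2 and 101 CPM, above its DMSO libraries on average but not called (0.13 ± 0.065, adjusted p = 0.13).

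Several genes had values of opposite sign in the genotypes. Ccnb1 was at 213, 214, 233 and 240 CPM in WT with MK-8722, with all 4 libraries above the DMSO libraries and a value of 0.24 ± 0.053 (adjusted p = 0.0013) that passed the p but not the fold. In AMPK KO it was at 183, 183, 172 and 190 CPM (-0.09 ± 0.053, adjusted p = 0.46). Cenpe was at 194, 178, 207 and 217 CPM in WT (0.18 ± 0.063, adjusted p = 0.032) and 167, 175, 155 and 179 CPM in AMPK KO (-0.21 ± 0.063, adjusted p = 0.071), above its DMSO level in the former and below it in the latter. Bub1b was at 201, 195, 218 and 231 CPM in WT (0.11 ± 0.058, adjusted p = 0.15) and 200, 207, 203 and 221 CPM in AMPK KO (-0.16 ± 0.058, adjusted p = 0.14). Kif11 was at 200, 214, 231 and 238 CPM in WT (0.04 ± 0.055, adjusted p = 0.66) and 249, 253, 244 and 265 CPM in AMPK KO (-0.22 ± 0.055, adjusted p = 0.032). The motor gene Kif20a read 360, 312, 345 and 369 CPM in WT and 230, 232, 207 and 229 CPM in AMPK KO, with values of 0.05 ± 0.054 and -0.16 ± 0.055. None of these reached the call.

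The next genes were not called with MK-8722 in either genotype. Cdk1 was at 213, 221, 237 and 240 CPM in WT with MK-8722, and at 209, 208 and 204 CPM at passages 16, 17 and 18 of AMPK KO and at its highest at passage 19 (0.10 ± 0.045 and -0.10 ± 0.045). Plk1 was at 190, 154, 196 and 208 CPM and 168, 172, 151 and 167 CPM (-0.07 ± 0.075 and -0.21 ± 0.075). Aurka was at 116, 104, 125 and 130 CPM and 113, 119, 101 and 121 CPM (-0.02 ± 0.072 and -0.21 ± 0.071). For these 3 kinase genes the AMPK KO value was below 0. The WT value was also below 0 for Plk1 and Aurka, and for Cdk1 it was above 0 and of the same size as in AMPK KO. Aurkb was at 105, 97.6, 112 and 116 CPM and 125, 126, 111 and 126 CPM (0.09 ± 0.058 and -0.07 ± 0.057). Birc5 was at 129, 125, 130 and 138 CPM and 110, 117, 110 and 121 CPM (-0.15 ± 0.047 and -0.14 ± 0.047), similar values in both. Prc1 was at 234, 237, 272 and 272 CPM and 212, 216, 220 and 227 CPM (0.08 ± 0.057 and -0.08 ± 0.057). Cdc20 was at 203, 184, 213 and 229 CPM and 206, 215, 190 and 221 CPM (0.02 ± 0.077 and -0.23 ± 0.077). All 4 of these genes had values below 0 in AMPK KO, and that of Cdc20 was the lowest of them. Espl1 was at 169, 151, 166 and 170 CPM and 269, 289, 240 and 275 CPM (0.09 ± 0.053 and -0.02 ± 0.053). Foxm1 was at 273, 243, 268 and 279 CPM and 246, 266, 228 and 251 CPM (-0.13 ± 0.045 and -0.11 ± 0.045). Among the markers of proliferation, Top2a was at 680, 665, 733 and 745 CPM and 766, 747, 766 and 792 CPM (0.08 ± 0.045 and -0.08 ± 0.045), and Mki67 at 442, 364, 462 and 469 CPM and 416, 400, 372 and 423 CPM (-0.13 ± 0.064 and -0.16 ± 0.064). The lowest value in WT was that of Incenp (-0.17 ± 0.05, adjusted p = 0.011).

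**Figure D3:**
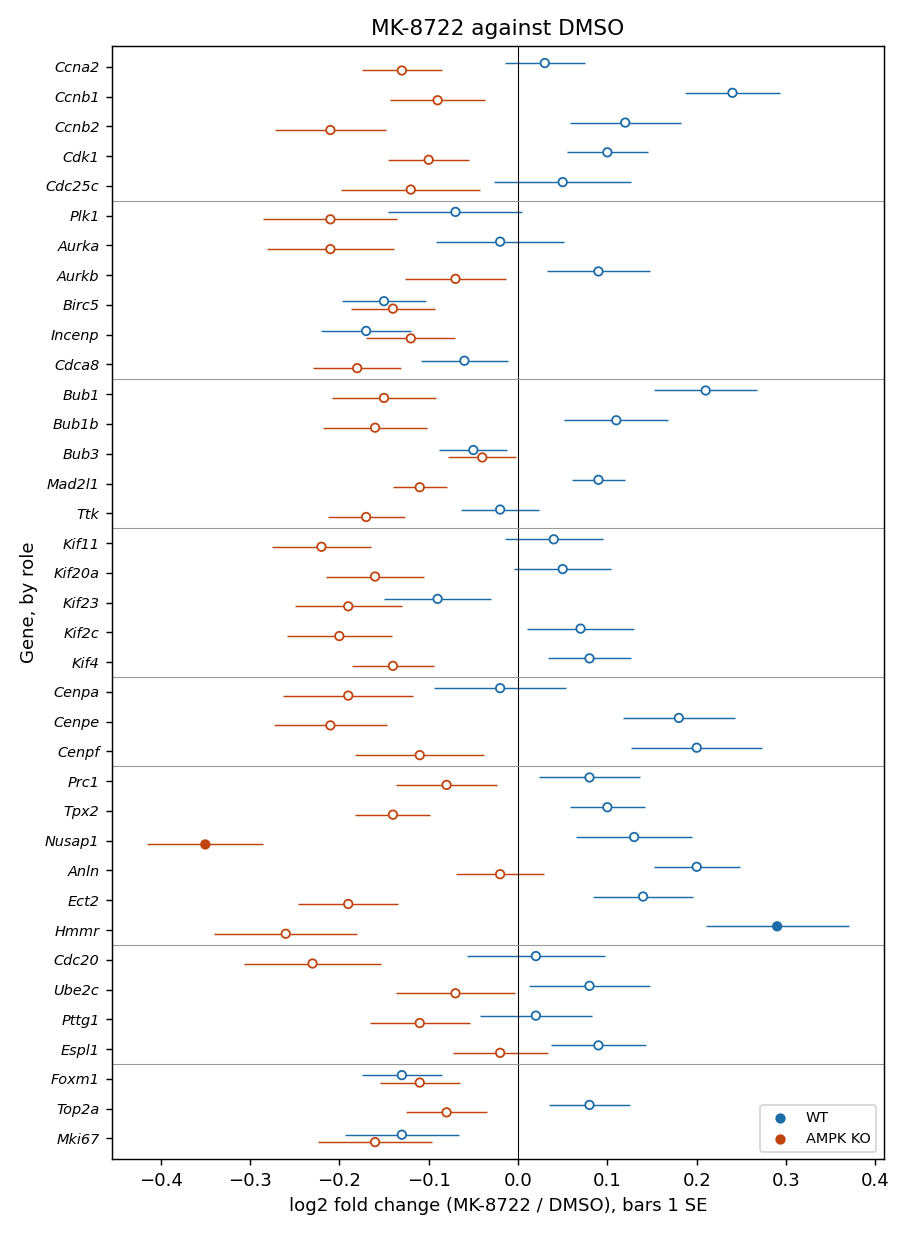
Log2 fold change of the 37 genes with MK-8722 against DMSO in WT and AMPK KO, with bars of 1 SE; filled points passed the call and open points did not. All 37 AMPK KO points lie below 0, from -0.35 to -0.02, and the WT points run from -0.17 to 0.29.

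Tested directly, the MK-8722 response was lower in AMPK KO than in WT for 10 of the 37 genes (7.66% of all genes) and higher for 0 (5.12% of all genes). DESeq2 called the same counts, and at an unadjusted p under 0.05 edgeR gave 21 lower and 0 higher. The median difference was -0.18, against 0.00 over all genes, with 33 genes below 0 and 4 above it. The largest were those of Hmmr (-0.55 ± 0.11, adjusted p = 0.0016), Nusap1 (-0.48 ± 0.092, adjusted p = 0.00077) and Cenpe (-0.39 ± 0.089, adjusted p = 0.0034). The checkpoint genes Bub1 (-0.36 ± 0.082, adjusted p = 0.0034) and Bub1b (-0.28 ± 0.082, adjusted p = 0.022), the cyclin genes Ccnb1 (-0.33 ± 0.075, adjusted p = 0.0039) and Ccnb2 (-0.33 ± 0.088, adjusted p = 0.011), and Ect2 (-0.33 ± 0.079, adjusted p = 0.006), Cenpf (-0.31 ± 0.1, adjusted p = 0.044) and Kif2c (-0.27 ± 0.084, adjusted p = 0.028) made up the 10. Those of Hmmr, Nusap1, Cenpe, Bub1, Ccnb1 and Ccnb2 were called whichever of the 16 libraries was left out. The count was 6 without DMSO replicate 2 of WT. Ccnb1, Nusap1 and Ect2 were called in the differences for both compounds, and both rest on the same DMSO libraries.

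Set against each other in the same genotype, the 2 compounds gave unlike levels for many of the genes. In WT, torin1 was above MK-8722 for 4 genes (24.5% of all genes) and below it for 12 (21.2%). The largest difference upward was that of Cenpe (0.51 ± 0.063, adjusted p = 1.9e-07), and the largest downward was that of Ccnb1 (-0.59 ± 0.053, adjusted p = 1.6e-09). Ttk (0.47 ± 0.043), Mki67 (0.30 ± 0.064) and Cenpf (0.27 ± 0.073) were the other genes that were higher, the libraries of Cenpf overlapping. With library size alone the split was 5 and 7, and with the GC and length trend removed it was 2 and 16. In AMPK KO, torin1 was above MK-8722 for 20 genes (26.8% of all genes) and below it for 0 (18.7%), with a median of 0.28 against 0.06 over all genes. DESeq2 gave 18 and 0, and 0 genes were lower at an unadjusted p under 0.05. Nusap1 (0.98 ± 0.065, adjusted p = 1e-11) and Cenpe (0.97 ± 0.063, adjusted p = 8.3e-12) led, and all 5 kinesin genes were among the 20. With the GC and length trend removed, 11 were higher and 0 lower. Both comparisons share their libraries with those against DMSO.

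Between the genotypes, the genes moved in both directions. With DMSO, 9 of the 37 genes were higher in AMPK KO than in WT (30.9% of all genes) and 3 lower (26% of all genes), with a median of 0.05 against 0.02. With MK-8722, 4 were higher (31.4%) and 10 lower (27.5%), with a median of -0.11 against 0.02. With torin1, 20 were higher (31%) and 0 lower (23.6%), with a median of 0.30 against 0.04. DESeq2 called 20 higher and 1 lower with torin1, and at an unadjusted p under 0.05 edgeR gave 28 and 5. The fibroblast markers moved with the genotype as well, 9 of the 10 tested being lower and 1 higher in AMPK KO with DMSO, and their part in these differences was not tested. With the GC and length trend removed, the splits were 7 higher and 7 lower with DMSO, 4 and 17 with MK-8722 and 12 and 3 with torin1, and the median of all genes moved to between -0.15 and -0.13. With library size alone they were 14 and 2, 7 and 9, and 28 and 0.

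Incenp, Kif2c, Pttg1 and Espl1 were higher in AMPK KO under all 3 treatments, and 0 genes were lower under all 3. The share of all genes higher or lower under all 3 treatments was not computed, so these counts have no background beside them. Pttg1 had the largest difference. It was at 11.5, 12, 11.7 and 11 CPM with DMSO, 10.9, 12, 11.7 and 12.3 CPM with MK-8722, and 10, 10.7, 11.7 and 11.1 CPM with torin1 in WT. The AMPK KO libraries read 30.5, 27.3, 26.2 and 28.3 CPM with DMSO, 27.5, 26, 25.3 and 25.3 CPM with MK-8722, and 28.5, 29.3, 26.8 and 30.9 CPM with torin1. Every AMPK KO library was above every WT library, at log2 fold changes of 1.28 ± 0.06 (adjusted p = 4e-15), 1.15 ± 0.06 (adjusted p = 2.4e-14) and 1.41 ± 0.06 (adjusted p = 7.4e-16) with DMSO, MK-8722 and torin1. The gene of its partner separase, Espl1, also separated the genotypes in the values given with each treatment, at 0.82 ± 0.053 (adjusted p = 1.6e-12), 0.71 ± 0.053 (adjusted p = 2e-11) and 0.88 ± 0.053 (adjusted p = 4.5e-13). Kif2c stood at 0.65 ± 0.06, 0.37 ± 0.06 and 0.75 ± 0.059 and Incenp at 0.53 ± 0.05, 0.59 ± 0.05 and 0.69 ± 0.05. With the GC and length trend removed, Kif2c was not called with MK-8722, and Incenp was not called with DMSO or MK-8722. With DMSO, Cenpf (0.52 ± 0.073), Nusap1 (0.51 ± 0.065), Kif11 (0.46 ± 0.055), Aurkb (0.34 ± 0.058) and Top2a (0.28 ± 0.045) were higher too. Of these, Aurkb lost its call with the GC and length trend removed.

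Anln, Kif20a and Kif23, whose proteins act in cytokinesis and the central spindle, were the 3 lower in AMPK KO with DMSO. Anln was at 351, 321, 356 and 363 CPM with DMSO, 379, 372, 422 and 422 CPM with MK-8722, and 314, 307, 312 and 318 CPM with torin1 in WT. In AMPK KO it was at 250, 265, 257 and 264 CPM with DMSO, 240, 259, 253 and 273 CPM with MK-8722, and 268, 295, 270 and 291 CPM with torin1. The genotypes did not overlap under any of the 3 treatments, and the log2 fold changes were -0.42 ± 0.049 (adjusted p = 3.8e-08) with DMSO, -0.64 ± 0.049 (adjusted p = 2.7e-11) with MK-8722 and -0.15 ± 0.048 (adjusted p = 0.0069) with torin1, the last not called. Kif20a stood at -0.42 ± 0.055 (adjusted p = 2.6e-07) and -0.63 ± 0.055 (adjusted p = 3.2e-10) with DMSO and MK-8722, and Kif23 at -0.37 ± 0.06 (adjusted p = 8e-06) and -0.47 ± 0.061 (adjusted p = 2.2e-07). With MK-8722, Bub1 (-0.60 ± 0.058), Ect2 (-0.47 ± 0.056), Ccnb2 (-0.46 ± 0.062), Mad2l1 (-0.45 ± 0.03), Cdc25c (-0.40 ± 0.078), Hmmr (-0.40 ± 0.08) and Ccnb1 (-0.30 ± 0.053) were also lower. With torin1, the mitotic kinase genes were among those higher in AMPK KO, at 0.63 ± 0.058 for Aurkb, 0.44 ± 0.072 for Aurka and 0.33 ± 0.075 for Plk1, of which Plk1 was at -0.02 with the GC and length trend removed. So were Nusap1 (0.85 ± 0.064), Kif11 (0.66 ± 0.055), Cdc20 (0.55 ± 0.077), Tpx2 (0.38 ± 0.042) and Ccnb1 (0.35 ± 0.053). With that trend removed, the calls of Plk1, Aurka and Cdc20 were lost. Ect2, the furrow gene, was at 159, 144, 172 and 169 CPM with DMSO, 175, 163, 188 and 184 CPM with MK-8722, and 139, 123, 138 and 146 CPM with torin1 in WT. Its levels in AMPK KO were 142, 147, 147 and 148 CPM with DMSO, 124, 130, 127 and 133 CPM with MK-8722, and 164, 168, 149 and 164 CPM with torin1. Its order of treatments thus differed between the genotypes, torin1 being lowest in WT and highest in AMPK KO.

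**Figure D4:**
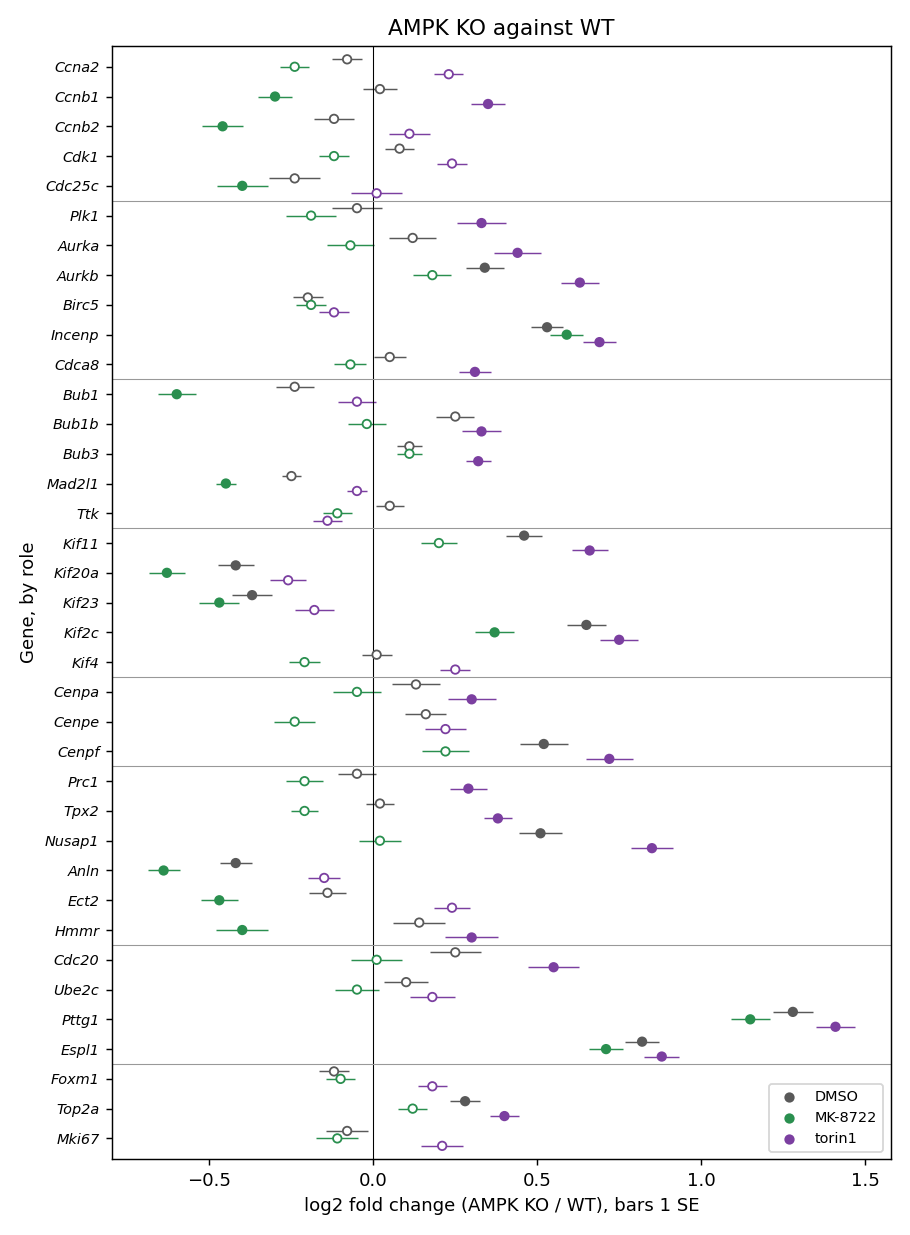
Log2 fold change of the 37 genes in AMPK KO against WT with DMSO, MK-8722 and torin1, with bars of 1 SE; filled points passed the call and open points did not. Pttg1 lies farthest above 0 under all 3 treatments, and for most genes the torin1 point is the highest and the MK-8722 point the lowest.

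The levels also differed between passages within the groups. At passage 19, 33 of the 37 genes were above their group's mean in all 3 AMPK KO libraries of that passage (19.2% of all genes), and at passage 18, 26 were below it (17%). In WT, 33 genes were above the mean in all 3 libraries of passage 15 (17% of all genes) and 22 below it in those of passage 12 (20.2%) and 13 in those of passage 13 (22.3%). The mean deviations were small, from -0.06 at passages 12, 13 and 18 to 0.05 at passage 19 and 0.08 at passage 15 on the log2 scale. Each group held 1 library of each passage, and the p-values above come from a fit without passage. With passage as a block, the counts called were the same in the 4 comparisons against DMSO and in both between the compounds. Adjusted p-values did change. For MK-8722 in AMPK KO, edgeR with the block gave adjusted p = 0.00018 for Hmmr, 0.00039 for Cenpe and 0.0014 for Bub1b, each lower than without it. Their log2 fold changes of -0.26, -0.21 and -0.16 did not reach the fold threshold, so they were not called. Other genes were also under 0.05 in that edgeR fit, among them Kif11 (adjusted p = 7.4e-05) and Ect2 (0.00077). The highest adjusted p-values of the 37 genes were those of Anln (0.8) and Espl1 (0.79). More genes lay above 0.05 as well, among them Aurkb (0.39), Bub3 (0.33) and Cdc25c (0.16).

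Longer transcripts had the higher torin1 values. Over the 37 genes, log2 length and the log2 fold change with torin1 had a Pearson correlation of 0.5 and a Spearman correlation of 0.41 in WT, and of 0.61 and 0.54 in AMPK KO (n = 37 genes that share the same libraries, a description). Mki67 (9866 bases), Cenpf (7510 bases) and Cenpe (6837 bases) are the longest, and Pttg1 (728 bases) and Cdk1 (849 bases) the shortest. Of the 19 longest genes, 8 rose with torin1 in AMPK KO, and of the 18 shortest 2 did, with medians of 0.22 and 0.01. In WT, 4 of the longest rose and 2 fell, whereas 1 of the shortest rose and 5 fell. Over all genes tested, 25.9% rose in AMPK KO, and 26.6% rose and 21.1% fell in WT. Shares and correlations by length over all genes were not computed, so the relation is not shown to be particular to these genes. With the trend over GC content and length across all genes removed, the number that rose in AMPK KO was 4 in place of 10. For the difference between the genotypes in the torin1 response, the Pearson correlation with length was 0.02. In that test, 6 of the longest and 6 of the shortest genes were called higher (4.15% of all genes).

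**Figure D5:**
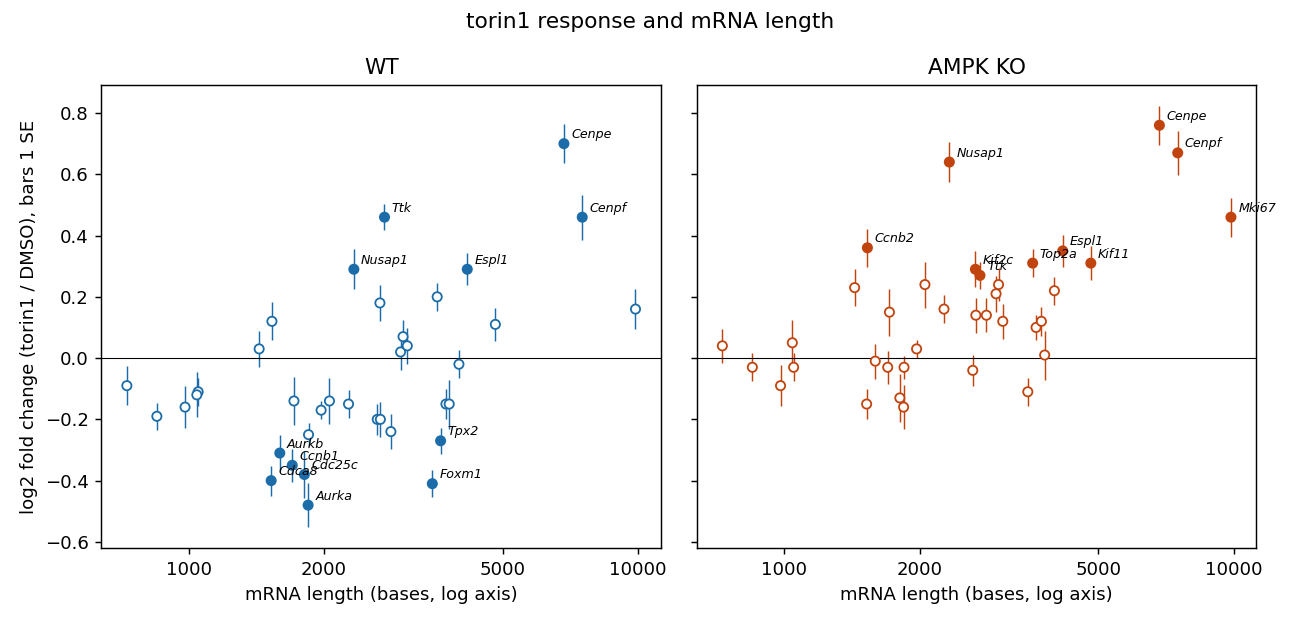
Log2 fold change with torin1 against DMSO (bars of 1 SE) against the mRNA length of the 37 genes on a log axis in bases, in WT and AMPK KO; filled points passed the call and open points did not. The longest genes, Mki67, Cenpf and Cenpe, lie above 0 in both genotypes.

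Other genes of mitosis gave a wider view of the torin1 response, beside the 26.6% of all genes that rose and 21.1% that fell in WT and the 25.9% and 17.6% in AMPK KO. Of 17 condensin and cohesin genes, which fold and hold the chromatids, 6 rose and 1 fell in WT (median 0.22), and 7 rose and 0 fell in AMPK KO by edgeR (median 0.24, with 1 lower at an unadjusted p under 0.05 and the same calls by DESeq2). Of 23 other spindle and cytokinesis genes, 8 rose and 1 fell in WT (median 0.14) and 11 rose and 0 fell in AMPK KO by edgeR and by DESeq2 (median 0.26, with 0 lower at an unadjusted p under 0.05). Among them, the citron kinase gene Cit rose by 0.90 ± 0.066 (adjusted p = 3.7e-11) and 0.90 ± 0.065 (adjusted p = 5.7e-11), and Numa1, whose protein focuses the spindle poles, by 0.70 ± 0.041 (adjusted p = 1.1e-12) and 0.62 ± 0.041 (adjusted p = 1.6e-11). Of 33 other kinetochore genes, 7 rose and 7 fell in WT, whereas 8 rose and 4 fell in AMPK KO, near the shares over all genes for the rises, with the outer kinetochore gene Ndc80 at 0.99 ± 0.046 (adjusted p = 3e-14) and 0.90 ± 0.046 (adjusted p = 3.9e-13). Of the 13 genes that set the CDK1 switch, 3 rose and 8 fell in WT (median -0.38), and 2 rose and 5 fell in AMPK KO (median -0.18). Mastl, the Greatwall kinase gene that shields CDK1 substrates from dephosphorylation, rose by 0.89 ± 0.05 (adjusted p = 6.3e-13) and 0.80 ± 0.05 (adjusted p = 6.3e-12), whereas the phosphatase gene Cdc25a fell, with values of -0.63 ± 0.059 (adjusted p = 2.2e-09) and -0.57 ± 0.059 (adjusted p = 1.6e-08). The CDK subunit gene Cks1b also fell, with values of -0.58 ± 0.048 (adjusted p = 3.7e-10) and -0.54 ± 0.048 (adjusted p = 1.8e-09). Of 17 APC/C genes, 3 rose and 4 fell in WT and 2 rose and 5 fell in AMPK KO. Of 14 MuvB, DREAM and B-Myb genes, 2 rose and 4 fell in WT and 4 rose and 4 fell in AMPK KO. Of 30 S phase genes, 10 rose and 8 fell in WT and 8 rose and 8 fell in AMPK KO.

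With MK-8722 these lists held few calls. In WT, where 10% of all genes rose and 5.66% fell, 3 of the 23 other spindle and cytokinesis genes and 2 of the 13 CDK1 switch genes rose. Falls were called for 4 of the 30 S phase genes, 4 of the 33 other kinetochore genes and 1 of the 17 APC/C genes, and of the 14 MuvB, DREAM and B-Myb genes 2 rose and 2 fell. The B-Myb gene Mybl2 fell, with a log2 fold change of -0.40 ± 0.063 (adjusted p = 3.1e-05). In AMPK KO, 1 of the kinetochore and 1 of the MuvB, DREAM and B-Myb genes fell, where 0.695% of all genes fell. The edgeR test of the difference between the genotypes called 7 of the 23 spindle and cytokinesis genes lower (7.66% of all genes) and 0 higher (5.12%; median -0.23, with 0 higher at an unadjusted p under 0.05), and DESeq2 called 5 and 0. Of the 30 S phase genes, 3 had a higher MK-8722 response in AMPK KO and 0 a lower one by both tools (median 0.02, with 4 lower at an unadjusted p under 0.05). The same test for torin1 called 4 of the 23 spindle and cytokinesis genes higher (4.15% of all genes) and 0 lower (2.92%) by edgeR and 2 and 0 by DESeq2 (median 0.15, with 0 lower at an unadjusted p under 0.05). It called 3 of the 30 S phase genes lower and 0 higher by edgeR and 6 and 0 by DESeq2 (median -0.11, with 0 higher at an unadjusted p under 0.05). Between the genotypes with DMSO, 14 of the 30 S phase genes were higher in AMPK KO (30.9% of all genes) and 0 lower (26%) by both tools (median 0.26, with 3 lower at an unadjusted p under 0.05), and 3 of the 33 kinetochore genes were higher and 12 lower (median -0.14).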

How the data were processed

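Libraries of polyadenylated RNA were sequenced as paired-end reads and processed by the authors with the nf-core RNA-seq workflow, with STAR alignment to GRCm38 and Salmon quantification; unique molecular identifiers were used to remove duplicates, and strand handling is not given in the sources used here. The deposited gene table holds estimated counts, which were rounded, and the deposited transcript tables hold TPM and estimated counts. The authors describe removing a batch effect with limma for their own tests, and the labels give all 24 libraries the same batch. Genes were filtered with filterByExpr and scaled by TMM, which left 15828 of 55487 genes, and 6 group means were fitted with edgeR 4.0.16 in R 4.3.3 (quasi-likelihood test, common biological coefficient of variation 0.079). Calls used the study's thresholds, adjusted p below 0.05 with at least a 1.2-fold change. Standard errors are the log2 fold change over the root of F. CPM values use TMM-scaled totals. Marker sums and Prkaa1 and Prkaa2 used plain totals. Levels between genes are in TPM, and totals of 26900240 to 34192685 counts set the precision. Alternatives included DESeq2 1.42.0, other scalings, filters and thresholds, passage and replicate blocks, and each library left out. The tests were also run on simulated data with known changes. Promoters were read from RefSeq windows and transcript lengths and GC content from a GRCm38 annotation, for 15813 of the tested genes. The members and lists were chosen with earlier results of these data known. All 37 genes are given values. Values per library are given for genes fixed by name, at least 1 of each role, and for the called gene with the largest rise and the largest fall in each comparison.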

Additional observations from a re-analysis of the deposited data

Results flagged for a closer look

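Of 132 groups of 4 libraries examined, 6 for each of the 21 genes given library by library and 6 for the mean of all 37, 4 held a library whose distance from its nearest neighbour was large for the range of the group, where chance gives about 1 in 20 groups. Aurkb was at 111 CPM in AMPK KO MK-8722 replicate 4 (passage 18) against 125 to 126 CPM in the other libraries of the group. Kif20a was at 207 CPM in the same library against 229 to 232 CPM. Mki67 was at 485 CPM in AMPK KO DMSO replicate 3 (passage 16) against 437 to 440 CPM, and Ect2 at 142 CPM in that library against 147 to 148 CPM.

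The responses of 10 genes to MK-8722 differed between the genotypes in a test of the difference itself (quasi-likelihood test of edgeR, adjusted over all genes, AMPK KO minus WT). The log2 differences were -0.55 for Hmmr, -0.48 for Nusap1, -0.39 for Cenpe, -0.36 for Bub1, -0.33 for each of Ccnb1, Ccnb2 and Ect2, -0.31 for Cenpf, -0.28 for Bub1b and -0.27 for Kif2c. The responses of 12 genes to torin1 differed in the opposite direction. The log2 differences were 0.38 for Ect2 and Plk1, 0.36 for Tpx2, 0.34 for Prc1 and Nusap1, 0.33 for Ccnb1, 0.32 for Aurka, 0.30 for Ccna2, Aurkb and Foxm1, 0.29 for Mki67 and 0.27 for Anln. Ccnb1, Nusap1 and Ect2 are in both sets, which share the DMSO libraries.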

How the results depend on the processing

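All values here are numbers of the 37 genes called. Depth and 4 libraries a group set the size of a difference that could be called, and most differences lay near the fold threshold of 1.2. With MK-8722 against DMSO in WT, the count of 1 became 2 with an offset for transcript length, 0 with only the libraries compared, 10 with the adjusted p alone, and 0 with a fold change of at least 1.5, with a test against a fold change of 1.2 or with the GC and length trend removed, an alternative chosen after seeing the data. For torin1 against DMSO in WT, 12 became 25, 1 and 7 with the adjusted p alone, a fold of 1.5 and the test against 1.2. In AMPK KO, the MK-8722 count of 1 became 4, 0 and 0, and the torin1 count of 10 became 22, 3 and 4 under those settings, and 4 with the GC and length trend removed. For torin1 against MK-8722, 16 in WT became 1 with a fold of 1.5 and 10 with the test against 1.2, and 20 in AMPK KO became 4 with a fold of 1.5 and 11 with the trend removed. For AMPK KO against WT, the counts of 12, 14 and 20 with DMSO, MK-8722 and torin1 became 22, 29 and 33 with the adjusted p alone and 3, 6 and 8 with a fold of 1.5. The 10 differences in MK-8722 response became 16 with the adjusted p alone, and 0 with a fold of 1.5 or the test against 1.2. The 12 in torin1 response became 6 with library size alone or at least 10 counts in every sample, 4 with only the libraries compared, and 0 with a fold of 1.5 or the test against 1.2. The cause was not tested beyond what the thresholds set by construction.

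Leaving out 1 library at a time gave 0 to 2 (MK-8722 in WT), 10 to 13 (torin1 in WT), 1 to 1 (MK-8722 in AMPK KO), 6 to 11 (torin1 in AMPK KO), 13 to 17 and 16 to 21 (torin1 against MK-8722 in WT and AMPK KO), 12 to 14, 14 to 17 and 14 to 21 (AMPK KO against WT with DMSO, MK-8722 and torin1), 6 to 12 (difference in MK-8722 response) and 2 to 13 (difference in torin1 response). The WT MK-8722 count was 0 without DMSO replicate 2 or MK-8722 replicate 3 or 4, and 2 without MK-8722 replicate 1 or 2. The AMPK KO torin1 count was 6 without torin1 replicate 4, and the difference in MK-8722 response 6 without WT DMSO replicate 2. The difference in torin1 response was 4 and 3 without AMPK KO DMSO replicates 3 and 4, 2 without AMPK KO torin1 replicate 2 or 4, 7 and 6 without WT DMSO replicates 1 and 3, and 4 and 3 without WT torin1 replicates 1 and 3.

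With library size alone, the all-gene median log2 fold change lay between 0.12 and 0.15 in the torin1 and genotype comparisons, and the median of the 37 genes less that of all genes stayed at -0.18 (WT) and 0.09 (AMPK KO) for torin1 against DMSO and 0.26 for the genotypes with torin1. The CHR count fell from 26 to 16 genes in the shorter window. In the fit with a replicate block, the counts were the same as without it except for 11 differences in torin1 response. Same-numbered libraries, some of which are also of the same passage, correlated above 0.1 in 5 of 60 pairs (-0.2 to 0.25). Of the pairs of the same passage, 15 of 24 did (-0.01 to 0.37). The main fit did not pair libraries by number. With passage as a block, the difference in torin1 response gave 13, the other counts were the same, and AMPK KO against WT could not be fitted.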
